A study of Mus musculus with 1047 samples.

Results

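The type I interferon response genes are 36 mouse genes that cells switch on when interferon alpha or beta binds its receptor. They were taken as a named list of interferon-induced genes, without a threshold on any measured value. All 36 were among the 18026 gene symbols of the aged Smart-seq2 table and among the 20765 of the 10x table, and 35 were among the 16012 of the 5xFAD Smart-seq2 table, where Cxcl10 was not analysed. As background, the receptor pair Ifnar1 and Ifnar2 activates the kinases Jak1 and Tyk2, which phosphorylate Stat2. With Irf9 it forms part of the complex ISGF3, which binds interferon-stimulated response elements in the promoters of its targets. The products block virus entry, degrade or sequester foreign RNA, sense nucleic acids in the cytosol and tune the signal itself, and microglia expressing them are known from ageing, demyelination and amyloid models.

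Microglia of aged and amyloid-bearing mice were measured by Smart-seq2, in which each sorted cell has its own well and whole transcripts are sequenced without molecular identifiers, and aged brain cells were measured in 10x droplets. Papain-dissociated tissue was kept in actinomycin D, which blocks transcription during the preparation, and live CD45+ CD11b+ cells were sorted onto plates. Trem2ko mice lack the microglial lipid receptor Trem2. They were 20 months old (A8 to A10) or 18 months old (A11 and A12), male (A8 and A12) or female (A9 to A11). WT mice were C57BL/6J of 18 or 19 months (A1 to A7), male but for A1. White matter pooled the optic tract, medial lemniscus and corpus callosum, and grey matter was frontal cortex, both from the same animal except in A1, which gave grey matter only. The 5xFAD mice carry amyloid precursor protein and presenilin transgenes and were 7-month-old females (A91, A93, A99 and A100). Their C57BL/6J controls were females of 7 months (A132) and 6 months (A173), and prefrontal cortex was taken from both. The 10x table pooled 24-month-old male C57BL/6J brain cells of grey and white matter, with myelin removed by beads and no sort named. Its 5 barcode endings could not be tied to libraries, and 1 of its white matter libraries carries an ApoeKO genotype label against a WT title, so it was treated as 1 sample.

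The reads of all cells of an animal's tissue were added up if it had 5 cells or more, and the animal was the replicate. The summed libraries held 571560 to 59748018 reads from 7 to 99 cells. Median depth per cell was 285216 reads in Trem2ko white matter, 256597 in Trem2ko grey matter, 89633 in WT white matter, 78051 in WT grey matter, 383162 in 5xFAD and 317275 in WT prefrontal cortex. The deepest libraries were those of A11 and A12, which lie in a separate part of the aged table. Trem2ko A8 to A10 lie in the same part as the WT animals, with a median of 75453 to 128112 reads per cell, against 58126 to 129690 in WT. Trem2 itself ranged from 274 to 707 counts per 1000000 reads (CPM) in Trem2ko A8 to A11, against 1794 to 5205 CPM in WT. The animal labelled Trem2ko A12 stood apart, at 2032 CPM in its white matter, inside the WT range, and 1453 in its grey matter. It was kept in its labelled group, and Trem2ko counts are also given without it. All 10 microglia markers examined were detected in every group.

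The response element that ISGF3 and related factors bind was searched in the promoters, as a property that no measured value entered. The letters GAAANNGAAA were looked for on both strands in RefSeq windows of GRCm38.p6 that run from 250 bases before to 50 bases after a gene's start. Of the 28 genes of the list with a window, 19 (67.9%) held a match, against 1079 of 27025 genes (3.99%) with a window. The sites below are 30 bases each on the gene's strand, 1 per gene, from families with different functions. The search fixed 8 of the 10 letters of a match, so only the free pair and the flanks could differ. Capitals mark the match, which reads TTTCNNTTTC where it lies on the opposite strand.

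Ifit1 (chr19:34640794-34640823): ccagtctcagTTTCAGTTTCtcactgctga
Ifit3 (chr19:34583397-34583426): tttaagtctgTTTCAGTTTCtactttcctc
Oas1a (chr5:120907520-120907549): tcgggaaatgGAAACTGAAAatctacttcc
Bst2 (chr8:71537577-71537606): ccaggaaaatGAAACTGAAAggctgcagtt
Rsad2 (chr12:26456553-26456582): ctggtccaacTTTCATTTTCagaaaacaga
Ifi211 (chr1:173913064-173913093): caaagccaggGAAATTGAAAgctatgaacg
Ifi213 (chr1:173599326-173599355): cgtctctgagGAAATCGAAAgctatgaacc

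The matches start 85 bases before the gene's start in Ifit1, 122 in Ifit3, 14 in Oas1a, 124 in Bst2, 120 in Rsad2, 37 in Ifi211 and 73 in Ifi213. In the printed sites, Bst2 and Oas1a share all 10 letters of the core, which those of Ifit1 and Ifit3 carry on the opposite strand, and Ifi211 and Ifi213 differ within the free pair of letters. Ifit1, Ifit3, Oas1a and Bst2 each hold another match, not printed, with a different free pair, so the shared core depends on which site was printed. Ifit3b, a near-identical neighbour of Ifit3, carries the same sites letter for letter, so reads of the pair are uncertain as well. Irf7, Oasl2, Lgals3bp, Irf9, Ifi35 and Slfn2 had a window without a match, and the window of Ifi27l2a, Rtp4, Ifi204 and Zbp1 was not analysed here. A match is a description of letters and shows no binding in these cells. By position, 7 of the 36 genes lie on chromosome 11 and 4 each on chromosomes 1, 7 and 19, where members of the same family are neighbours (Ifit genes on 19, the Ifi200 genes on 1, Schlafen genes on 11).

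In aged WT mice, white matter microglia held more mRNA of the interferon response genes together than grey matter microglia of the same brains. The summed level of the genes was 3247 CPM in A2, 1948 in A3, 2133 in A4, 2726 in A5, 2209 in A6 and 1745 in A7 in WT white matter (lowest 1745, highest 3247). WT grey matter held 559 CPM in A1, 1120 in A2, 632 in A3, 1189 in A4, 847 in A5, 1573 in A6 and 1155 in A7. Over all genes of the list, the WT tissues did not overlap, since every white matter library lay above every grey matter library. Means were 2335 ± 555 CPM (SD, n = 6) in white and 1011 ± 355 CPM (n = 7) in grey matter. That separation depended on Lgals3bp. With this gene left out of the sum, WT white matter of A7 (1008 CPM) and A3 (1066 CPM) fell below WT grey matter of A6 (1080 CPM). White matter still lay above grey matter of the same animal in A2 to A7, and the means were 1622 ± 609 and 721 ± 302 CPM. In bulk sums, fewer cells expressing a gene and less RNA per cell cannot be told apart, and 1 cell can carry much of a sum. A single cell held 42.5% of the reads of these genes in WT white matter of A2, 54.1% in WT grey matter of A2 and 50.2% in WT grey matter of A6. Without the cell with most of these reads in each library, and with Lgals3bp in the sum, WT white matter ran from 1517 to 2389 CPM and WT grey matter from 434 to 977 CPM.

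Trem2ko mice showed the same order in 4 of 5 animals. For A8, A9, A10, A11 and A12, white matter held 4897, 1268, 1830, 2243 and 2636 CPM. The matching Trem2ko grey matter held 1394, 3170, 1110, 1063 and 1110 CPM, in the same order of animals. The tissues overlapped because of A9, where grey matter was the higher and 1 cell of 28065 CPM, with 16 of the genes detected, held 32.2% of the reads. The log2 ratio of the Trem2ko means was 0.71 with all animals, 1.31 without A9, 0.31 without A8 and 0.60 without A12. In prefrontal cortex, 5xFAD mice held 4316 CPM in A91, 1517 in A93, 3523 in A99 and 2551 in A100, against 1635 CPM in A132 and 1229 in A173 of WT. The 5xFAD range thus included the higher WT animal. One of the 7 cells of A91 held 85.7% of its reads of these genes, and the other cells of that animal summed to 834 CPM. The log2 ratio of the 5xFAD and WT means was 1.06, and 0.55 without the cell with most of these reads in each library.

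**Figure D1:**
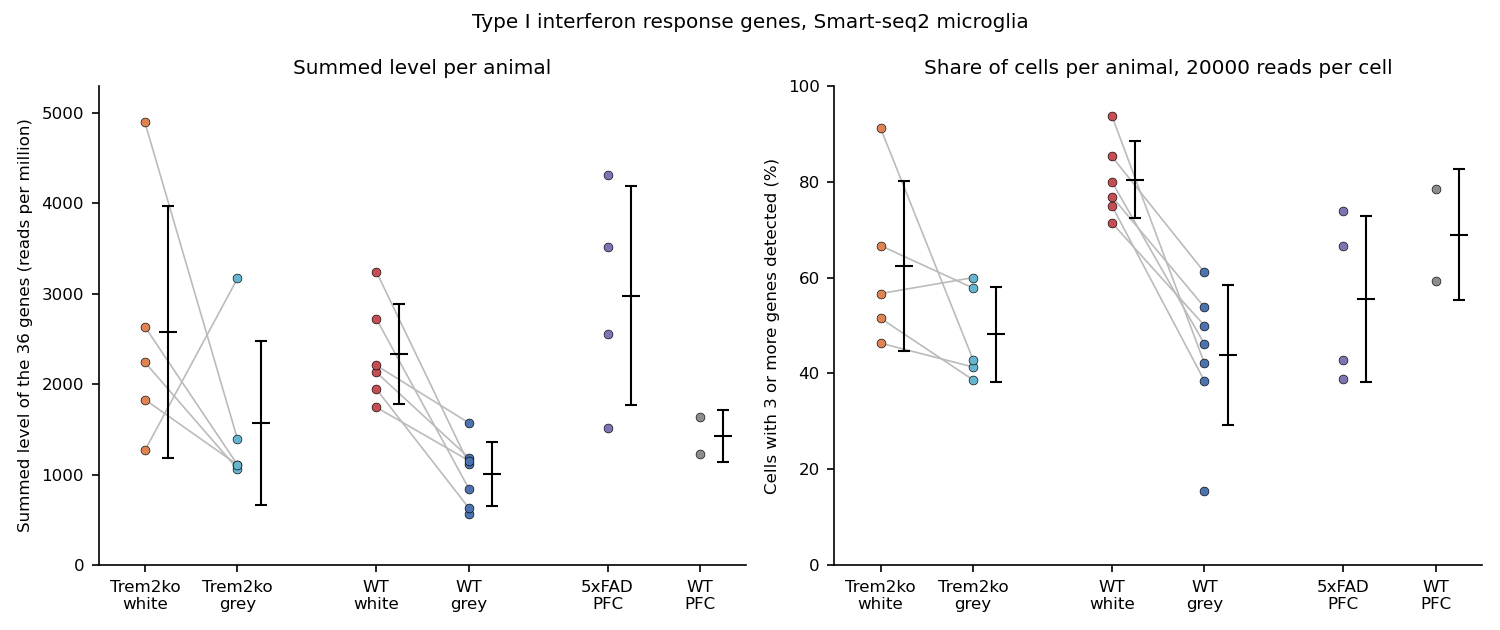
Summed level of the 36 genes (CPM) and share of cells with 3 or more of them detected after thinning to 20000 reads (%), 1 point per animal and tissue with the mean and SD of each group; lines join tissues of 1 animal. WT white matter libraries (1745 to 3247 CPM) all lie above WT grey matter libraries (559 to 1573 CPM), whereas Trem2ko A9 crosses the other Trem2ko animals. With Lgals3bp left out of the sum, the WT tissues overlap.

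None of the genes passed the threshold of the test across all genes in any comparison, so the values below are given without a claim of change. In WT mice, 35 of the genes passed the filter on low counts and 0 had an adjusted p of at most 0.05 by edgeR's quasi-likelihood test, against 0.0350% of all 11443 genes tested. An unadjusted p under 0.05 was met by 9 of them, all higher in white matter, against 3.27% of all genes in that direction. DESeq2 called 4 of the genes on the same libraries (Ifi27l2a, Rsad2, Ifi204 and Lgals3bp). Log2 fold changes were above 0 for 32 of the 35, against 54.3% of all genes, with a median of 2.18, against 0.11 over all genes, and that median was 1.39 without the animal as a block. Members that are near 0 in grey matter pass the low-count filter through white matter, so these counts describe the list and support nothing further. Cxcl10 was left out of the tests because it had 0 reads in the part of the table that holds A11 and A12.

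Compared per kilobase of exon, Bst2 had the highest level over the aged libraries (295 CPM per kb), followed by Lgals3bp (188), Ifi27l2a (145), Ifitm3 (81.7), Ifi35 (60.5), Slfn2 (51.2), Rtp4 (36.2) and Ifit3 (32.8). The lowest was Ifi44, at 0.153 CPM per kb. The first 4 of these encode secreted or membrane proteins.

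Among secreted and membrane proteins, Lgals3bp and Ifi27l2a were higher in white matter of every WT animal. Lgals3bp (chr11:118392751-118402092, minus strand) encodes a secreted glycoprotein that binds galectin-3. It ranged from 486 to 1083 CPM (median 641, n = 6) in WT white matter and from 120 to 493 CPM (median 287, n = 7) in WT grey matter. The ranges met only at their edge, where WT grey matter of A6 (493 CPM) lay above WT white matter of A4 (486 CPM). The log2 fold change was 1.48 ± 0.36 (SE), unadjusted p = 6.46e-04 and adjusted p = 0.246 by edgeR's quasi-likelihood test. Ifi27l2a (chr12:103442167-103443680, minus strand) encodes a small hydrophobic protein of the ISG12 family. It had 119 CPM in A2, 125 in A3, 144 in A4, 247 in A5, 64.8 in A6 and 133 in A7 in WT white matter (median 129). In WT grey matter it had 0 CPM in A1 and A2, 1.89 in A3, 20.9 in A4, 3.13 in A5, 5.25 in A6 and 6.37 in A7 (median 3.13). The WT tissues did not overlap for Ifi27l2a, the single gene of the list of which this holds, against 0.114% of all genes tested. Means were 139 ± 59.9 CPM (SD, n = 6) in white and 5.36 ± 7.26 CPM (n = 7) in grey matter, with a log2 fold change of 5.22 ± 0.96 (SE), unadjusted p = 4.19e-05 and adjusted p = 0.0660. The adjusted p of Ifi27l2a was 0.0344 without the animal as a block and 2.48e-09 by DESeq2, and ranged from 2.48e-09 to 0.310 over the alternatives run.

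Bst2 (chr8:71534255-71537456, minus strand), or tetherin, holds budding viruses at the cell surface. It ranged from 219 to 746 CPM (median 338) in WT white matter and from 80.5 to 490 CPM (median 160) in WT grey matter. The ranges overlapped through WT grey matter of A6, and the log2 fold change was 1.13 ± 0.41 (SE) with an unadjusted p of 0.0144 and an adjusted p of 0.844 by edgeR's quasi-likelihood test. Ifitm3, which blocks virus fusion in endosomes, ranged from 1.11 to 105 CPM (median 76.2) in WT white matter and from 0.631 to 175 CPM (median 8.21) in WT grey matter. The highest Ifitm3 value of both tissues was thus a grey matter one, of A2, and its log2 fold change of 2.21 ± 1.38 had an unadjusted p of 0.127. Cxcl10, a chemokine that draws activated T cells, had 133 CPM in WT white matter of A4 and at most 5.07 CPM in the other white matter animals. It had 501 reads in WT white matter and 4 in WT grey matter. Most of the white matter reads lay in 1 cell of A4, which had 83561 reads and 5720 CPM of Cxcl10.

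**Figure D2:**
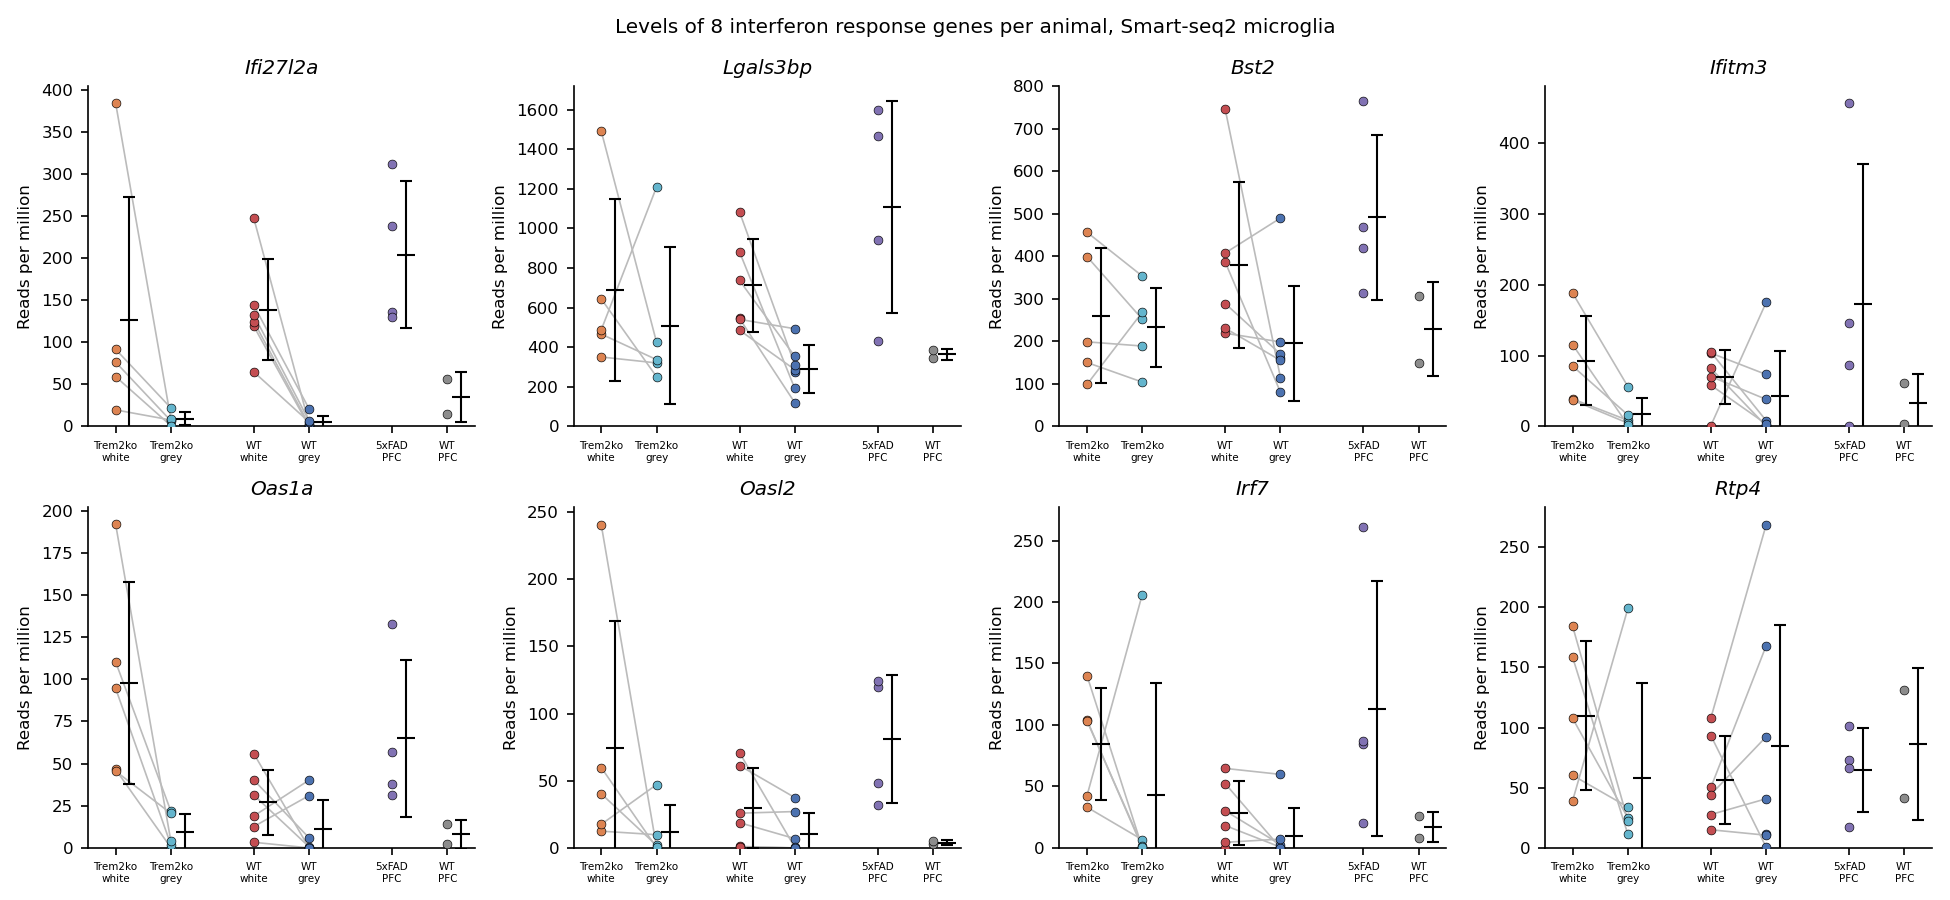
Level of Ifi27l2a, Lgals3bp, Bst2, Ifitm3, Oas1a, Oasl2, Irf7 and Rtp4 (CPM) in every animal of the 6 groups, 1 point per animal with the mean and SD of each group beside it, no SD bar drawn below 0 and lines joining tissues of 1 animal. Ifi27l2a separates WT white matter (64.8 to 247 CPM) from WT grey matter (0 to 20.9 CPM), while Rtp4 overlaps widely.

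The Ifit genes encode proteins that bind foreign RNA and halt its translation, and they were carried by few WT libraries. Ifit3 had 354 CPM in A2, 15.9 in A3, 24.7 in A4, 9.81 in A5, 0 in A6 and 22.0 in A7 in WT white matter. Its level in WT grey matter was 0 CPM in A1, A2 and A6, 8.20 in A3, 0.475 in A4, 0.782 in A5 and 47.0 in A7. The ranges overlapped, and the log2 fold change of Ifit3 was 3.56 ± 1.82 with an unadjusted p of 0.0680. Ifit1 had 72 reads in WT white matter, in 4 of 6 libraries, and 0 reads in the 7 WT grey matter libraries. Pooled over animals, that is 23.4-fold above a floor of 3 reads over the group, a bound that takes in no spread over animals. The unadjusted p of Ifit1 was 0.0441 by edgeR's quasi-likelihood test. Ifit2 and Ifit3b had log2 fold changes of 3.96 and 4.25, from levels of at most 3.98 CPM in WT grey matter.

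Of the antiviral enzymes, Rsad2 was read in white matter alone among the aged WT libraries. Rsad2, or viperin, makes a nucleotide that ends viral RNA chains. It had 53.4 CPM in A2, 3.98 in A3, 20.0 in A4, 23.4 in A5, 0 in A6 and 1.01 in A7 in WT white matter, 162 reads in all, and 0 reads in each of the 7 WT grey matter libraries. Pooled over animals, that is 52.6-fold above a floor of 3 reads over the group, a bound that takes in no spread over animals. For Rsad2 the unadjusted p was 0.00621 and the adjusted p 0.725 by edgeR's quasi-likelihood test. The fitted log2 fold change of 10.71 ± 3.19 depends on the prior count, as for every gene with a group at 0. Oas1a makes the short oligoadenylates that switch on RNase L, and Oasl2 is a relative of it. Oas1a ranged from 3.34 to 55.8 CPM (median 25.1) in WT white matter, against 0 CPM in A1, A2 and A5, 0.631 in A3, 5.93 in A4, 40.2 in A6 and 31.1 in A7 of WT grey matter. Oasl2 ranged from 0.728 to 70.9 CPM (median 22.3) in WT white matter, against 0 to 37.5 CPM in WT grey matter. Both overlapped between WT tissues, with log2 fold changes of 3.06 ± 1.72 and 2.18 ± 1.55.

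Sensors of nucleic acids differed among themselves, and Zbp1, Ifi204, Ifi211 and Ifi213 were near 0 in WT grey matter while Dhx58, Eif2ak2 and Ifih1 were not. Zbp1, which binds left-handed nucleic acid and can start cell death, had 131 CPM in A2, 1.14 in A3, 23.0 in A4, 0 in A5 and A6 and 1.01 in A7 in WT white matter. In WT grey matter it was read in A1 alone, at 0.836 CPM, and A1 is outside the paired fit. Its unadjusted p was 0.00450 and its adjusted p 0.677 by edgeR's quasi-likelihood test. The Ifi200 genes Ifi204, Ifi207, Ifi211 and Ifi213 lie in 1 cluster on chromosome 1, encode relatives of a cytosolic DNA sensor and can share reads. Ifi204 had 41.2 CPM in A2, 23.3 in A3, 3.05 in A4, 21.9 in A5, 0 in A6 and 2.79 in A7 in WT white matter, and 1.66 CPM in A4 and 0 in the other 6 libraries of WT grey matter. Ifi211 had at most 21.1 CPM in WT white matter (A6) and was read in A6 alone of WT grey matter (3.50 CPM). Ifi213 had 52 reads in WT white matter against 0 in WT grey matter, which pooled over animals is 16.9-fold above a floor of 3 reads over the group. Ifi207 went to 37.4 CPM in WT grey matter of A2 and at most 1.59 CPM in the other grey matter libraries, against 0 to 36.2 CPM in WT white matter, and the ranges overlapped. Unadjusted p was 0.00945 for Ifi204, 0.0335 for Ifi211 and 0.0131 for Ifi213. Ifih1, the sensor of long double-stranded RNA also called MDA5, was higher in white matter of all 6 WT animals, with 1.11 to 153 CPM in white and 0 to 16.4 CPM in grey matter. With Ifi27l2a and Lgals3bp it makes 3 members higher in white matter in every WT animal, against 1.14% of all genes. Dhx58, a relative of Ifih1 that binds double-stranded RNA, ranged from 14.4 to 301 CPM (median 37.5) in WT white matter and from 0 to 63.7 CPM (median 11.9) in WT grey matter. Eif2ak2, the kinase PKR that halts translation when it binds double-stranded RNA, ranged from 0.728 to 55.7 CPM (median 25.3) in WT white and from 1.90 to 38.5 CPM (median 14.4) in WT grey matter. Both overlapped between the WT tissues.

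Factors that carry or tune the signal varied widely within both tissues. Irf7, which drives interferon alpha genes, had 52.3 CPM in A2, 18.2 in A3, 64.7 in A4, 30.2 in A5, 0 in A6 and 4.56 in A7 in WT white matter. In WT grey matter it had 59.8 CPM in A4, 7.17 in A7, 2.74 in A5, 0.631 in A3 and 0 in A1, A2 and A6, so the tissues overlapped (log2 fold change 2.91 ± 1.72, unadjusted p = 0.110). Irf9, the DNA-binding subunit of ISGF3, ranged from 18.2 to 226 CPM (median 40.6) in white and from 0.849 to 123 CPM (median 32.5) in grey matter of WT mice. Its exons overlap those of Rnf31 on the same strand, so its reads are uncertain, as are those of Rtp4 and Parp14, which overlap noncoding or unclassified genes on the same strand. Whether counting used strand was not given in the sources used here, so reads of Irf7 (Phrf1), Cxcl10 (Art3), Ifi35, Dhx58, Eif2ak2, Slfn5 and Usp18 cannot be told apart from those of genes that overlap them on the opposite strand. Its partner Stat2 had a median of 22.5 CPM in WT white and 1.75 CPM in WT grey matter, with overlapping ranges. Usp18, which removes Isg15 from proteins and damps the receptor, had a median of 45.9 CPM in WT white and 1.26 CPM in WT grey matter. Isg15, the ubiquitin-like modifier itself, had medians of 9.03 CPM in white matter and 1.75 CPM in grey matter.

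The 3 genes with a log2 fold change under 0 in WT mice were Slfn5, Rtp4 and Ifi35. Rtp4, a Golgi chaperone of receptors known in mice as a brake on interferon signalling, ranged from 15.1 to 108 CPM (median 47.3) in WT white and from 0.631 to 268 CPM (median 40.8) in WT grey matter, with a log2 fold change of -0.13 ± 0.99. Ifi35, a leucine zipper protein, ranged from 25.7 to 213 CPM (median 89.1) in WT white and from 0.836 to 219 CPM (median 86.2) in WT grey matter (log2 fold change -0.03 ± 0.57). Both stand among the 8 members with the highest levels and had nearly the same median in both WT tissues. Slfn2, a Schlafen gene known for keeping mouse T cells quiescent, ranged from 0 to 554 CPM (median 85.1) in white and from 1.96 to 87.5 CPM (median 53.9) in grey matter, where the WT white matter library of A6 stood alone at the top. The remaining members (Xaf1, Ifi207, Ifi44, Dhx58, Trim30a, Trim30d, Mx1, Parp14, Slfn8 and Eif2ak2) had log2 fold changes from 0.12 (Trim30d) to 4.38 (Ifi44, 2 reads in WT white and 0 in WT grey matter), with overlapping ranges and unadjusted p over 0.05.

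**Figure D3:**
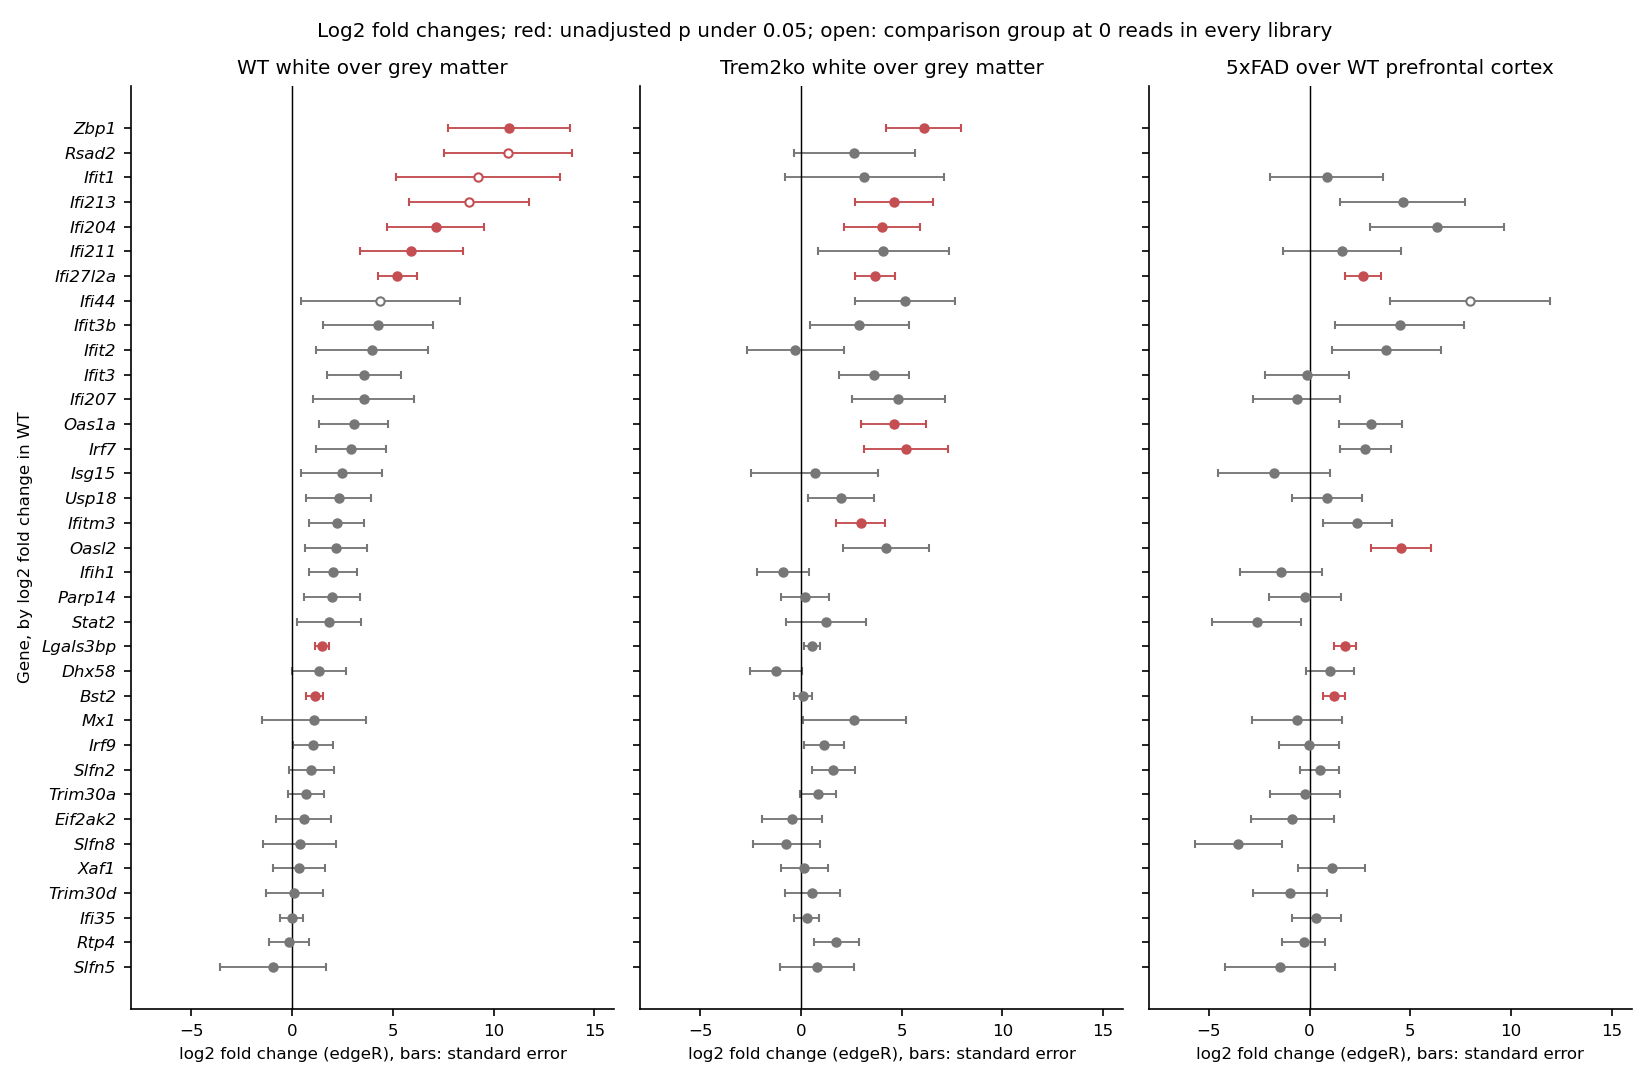
Log2 fold change of each tested gene with its SE for white against grey matter in WT, white against grey matter in Trem2ko, and 5xFAD against WT prefrontal cortex; red marks an unadjusted p under 0.05 and open points a comparison group at 0 reads in every library. Of the 35 genes tested between tissues, 32 lie above 0 in WT and 30 in Trem2ko, and none passed the adjusted threshold.

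In Trem2ko mice, white matter libraries again held more Ifi27l2a, Oas1a, Ifitm3 and Ifi204 than grey matter in 5 of 5 animals, and 0 of the 35 tested genes passed an adjusted p of 0.05 (0% of 11443 genes did). The 7 genes with an unadjusted p under 0.05 by edgeR's quasi-likelihood test were all higher in white matter, against 1.42% of all genes in that direction. By the same edgeR test at an unadjusted p under 0.05, the number was 3 without A12 (Ifi27l2a, Oas1a and Zbp1), 4 without A10 and 11 without A9. DESeq2 with all animals called 4 genes (Irf7, Oasl2, Oas1a and Ifi27l2a). A log2 fold change above 0 was found for 30 of 35, against 50.0% of all genes, with a median of 1.76, which was 1.42 without A12, 1.11 without A8, 2.78 without A9, 1.02 without the animal as a block and 1.16 with limma on mean per-cell CPM. Higher values in white matter of all 5 animals were found for 4 members, against 2.82% of all genes. The ranges did not overlap for Oas1a and Ifi204, against 0.446% of all genes.

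Ifi27l2a had 385, 59.3, 19.7, 91.8 and 76.5 CPM in Trem2ko white matter of A8 to A12. It had 8.38, 0.878, 7.61, 21.9 and 6.68 CPM in Trem2ko grey matter of the same animals. The ranges met only where white matter of A10 lay below grey matter of A11, and the log2 fold change was 3.68 ± 0.99 (SE), with an unadjusted p of 0.00173 and an adjusted p of 1 by edgeR's quasi-likelihood test. Oas1a had 192, 45.5, 46.5, 110 and 94.6 CPM in white matter of A8 to A12, and 3.84, 20.5, 0.159, 21.7 and 1.79 CPM in their grey matter, in the same order of animals. Each white matter library lay above each grey matter library, with a log2 fold change of 4.60 ± 1.63 and an unadjusted p of 0.0115. Oasl2 had 240, 17.6, 59.8, 12.5 and 40.3 CPM in white matter and 0.349, 47.1, 0.159, 9.83 and 1.91 CPM in grey matter of A8 to A12, and A9 ran the other way. Ifitm3 had 188, 85.1, 38.8, 37.1 and 115 CPM in white matter and 56.2, 16.1, 8.56, 4.64 and 2.06 CPM in grey matter of A8 to A12. White matter was the higher in each animal, though the grey matter of A8 lay above the white matter of A10 and A11, and the log2 fold change was 2.97 ± 1.23 with an unadjusted p of 0.0278.

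Irf7 had 140, 42.4, 104, 33.1 and 103 CPM in Trem2ko white matter of A8 to A12, and 0.349, 206, 0.317, 6.69 and 1.61 CPM in grey matter of the same animals. Grey matter of A9 held the highest Irf7 value of both tissues, and the log2 fold change of 5.21 ± 2.09 had an unadjusted p of 0.0239. Ifit3 behaved alike, with 185, 18.6, 36.8, 158 and 73.1 CPM in white matter and 15.7, 326, 0.317, 18.9 and 2.28 CPM in grey matter, and its log2 fold change was 3.62 ± 1.73 with an unadjusted p of 0.0523. Rtp4 had 184, 39.3, 60.3, 108 and 158 CPM in white matter and 22.7, 199, 33.9, 24.9 and 11.2 CPM in grey matter of Trem2ko A8 to A12. In each of these genes 4 of 5 animals were higher in white matter, and A9 was the exception. Irf9 had 148, 84.1, 102, 95.0 and 343 CPM in white matter and 8.03, 114, 48.7, 124 and 117 CPM in grey matter of Trem2ko A8 to A12, and the tissues overlapped (log2 fold change 1.15 ± 1.00). Slfn2 had 187.2, 65.5, 146, 75.2 and 82.9 CPM in white matter, against 24.4, 78.7, 25.8, 53.0 and 21.0 CPM in grey matter (log2 fold change 1.61 ± 1.05, unadjusted p = 0.144). Ifi35 had 222, 52.4, 133, 138 and 74.9 CPM in white matter, against 63.9, 144, 177, 59.1 and 76.4 CPM in grey matter, with no common direction over the animals.

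Among the sensors, Zbp1, Ifi204 and Ifi213 were low in Trem2ko grey matter, and Dhx58 and Ifih1 had their higher median there. Dhx58 had 66.5, 46.5, 1.11, 9.34 and 20.8 CPM in white matter and 56.5, 78.7, 57.2, 26.3 and 28.7 CPM in grey matter of Trem2ko A8 to A12. Ifih1 had 2.78, 5.17, 12.7, 13.2 and 36.0 CPM in white matter and 76.4, 19.6, 9.99, 18.8 and 18.2 CPM in grey matter. Both overlapped between the tissues. Zbp1 had 41.2, 0, 10.5, 5.05 and 11.1 CPM in white matter and 0, 0, 0.317, 0.162 and 0.124 CPM in grey matter of Trem2ko A8 to A12, with an unadjusted p of 0.00687. Ifi204 had 12.5, 6.20, 6.37, 12.8 and 15.8 CPM in white matter and 0, 4.39, 0, 2.70 and 1.12 CPM in grey matter, without overlap and with an unadjusted p of 0.0480. Ifi213 had 14.2, 0, 0.554, 8.30 and 13.4 CPM in white and at most 1.11 CPM in grey matter, with an unadjusted p of 0.0368. Rsad2 had 14.7, 0, 0, 7.95 and 76.7 CPM in white matter and 0, 0.585, 0, 10.2 and 0.820 CPM in grey matter of Trem2ko mice, with overlapping ranges (log2 fold change 2.65 ± 3.00). The abundant Lgals3bp and Bst2 overlapped as well in Trem2ko. Lgals3bp had 1491, 488, 351, 644 and 466 CPM in white matter and 425, 1210, 321, 251 and 337 CPM in grey matter, with a log2 fold change of 0.57 ± 0.39 and an unadjusted p of 0.163. Bst2 had 457, 98.6, 399, 150 and 199 CPM in white matter and 354, 268, 252, 104 and 189 CPM in grey matter (log2 fold change 0.12 ± 0.44). Members with a log2 fold change under 0 in Trem2ko were Dhx58 (-1.25), Ifih1 (-0.89), Slfn8 (-0.72), Eif2ak2 (-0.44) and Ifit2 (-0.28).

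Whether the tissue difference itself differed between Trem2ko and WT was tested in the same fit. None of the 35 genes passed, at an adjusted p of 0.05 (0% of all genes did) or an unadjusted p under 0.05 (0.961% of all genes, higher), and DESeq2 called 0. The fitted difference was positive for 15 of 35, with a median of -0.59, against -0.11 over all genes. The sign of that median was not stable, since it was 0.21 by DESeq2 and 0.34 without A9 (19 of 35 positive in each), and -1.28 without A8. For Ifi27l2a it was -1.54 ± 1.31 with an unadjusted p of 0.257. The smaller value of Lgals3bp and Bst2 in Trem2ko than in WT is therefore not shown to be a difference between genotypes.

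Genotypes were also set against each other within each tissue, where they differ partly in depth, sex and age. In white matter 31 of the genes were tested and 0 passed an adjusted p of 0.05 (0% of 8441 genes did) by edgeR's quasi-likelihood test or by DESeq2. One, Oas1a, had an unadjusted p under 0.05 and was higher in Trem2ko, against 1.77% of all genes. It had 45.5 to 192 CPM in Trem2ko and 3.34 to 55.8 CPM in WT white matter, with a log2 fold change of 1.70 ± 0.72 and an adjusted p of 0.999. Its unadjusted p was 0.131 without A8, 0.0564 without A11 and 0.0633 without A7. The log2 fold change was above 0 for 18 of 31 members, against 54.3% of all genes, with a median of 0.25, which was -0.02 without A12 and -0.07 without A8. In grey matter 21 genes were tested and 0 passed, at an adjusted p of 0.05 (0.0121% of 8288 genes did) by edgeR's quasi-likelihood test or DESeq2, or at an unadjusted p under 0.05 (1.34% of all genes, higher). There, 16 of 21 members were above 0, against 54.0% of all genes, with a median of 0.71, or 0.25 without A9. Without A11 and A12, the deeply sequenced animals, 0 members were called in either tissue, with 17 of 31 above 0 (median 0.06) in white matter and 16 of 22 (median 0.51) in grey matter. Summed means in white matter were 2575 ± 1394 CPM in Trem2ko (SD, n = 5) and 2335 ± 555 CPM in WT (n = 6), and the log2 ratio turned to -0.23 without Trem2ko A8. In grey matter they were 1570 ± 904 CPM in Trem2ko (n = 5) and 1011 ± 355 CPM in WT (n = 7), and the log2 ratio there was 0.64, or 0.21 without Trem2ko A9.

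In prefrontal cortex, microglia of 5xFAD mice held more Ifi27l2a, Lgals3bp, Oasl2, Oas1a and Bst2 than those of WT mice in each of the 4 animals, and 0 of 33 tested genes passed an adjusted p of 0.05 (0% of 9668 genes did). An unadjusted p under 0.05 was met by 4 genes, all higher in 5xFAD, against 1.82% of all genes, and DESeq2 called 1 gene, Oasl2. The groups did not overlap for those 5 genes, against 3.42% of all genes higher without overlap. Slfn8 alone lay without overlap in the other direction, against 8.37% of all genes. With 4 animals against 2, non-overlap is frequent, as these shares show. The log2 fold change was above 0 for 19 of 33 members, against 54.2% of all genes, with a median of 0.84, against 0.13 over all genes. That median rested on single animals, at 2.31 without WT A132 (27 of 33 above 0), 0.36 without WT A173, 0.43 without 5xFAD A100 and 0.03 without 5xFAD A99. It was 0.54 without cells with markers of another type, and -0.02 with limma on mean per-cell CPM, with 16 of 33 above 0.

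Ifi27l2a had 136 CPM in A91, 130 in A93, 312 in A99 and 238 in A100 of 5xFAD, against 56.3 CPM in A132 and 14.3 in A173 of WT, and its log2 fold change was 2.64 ± 0.89 with an unadjusted p of 0.0128. Lgals3bp had 1597, 429, 1467 and 942 CPM in 5xFAD A91, A93, A99 and A100, against 344 and 384 CPM in WT A132 and A173, with a log2 fold change of 1.75 ± 0.53, an unadjusted p of 0.00703 and an adjusted p of 1 by edgeR's quasi-likelihood test. Oasl2 had 120, 31.6, 124 and 48.3 CPM in the same 5xFAD animals, against 2.60 and 5.23 CPM in WT, with a log2 fold change of 4.53 ± 1.47 and an unadjusted p of 0.0103. All 3 genes were above the WT values in every 5xFAD animal. Bst2 had 765, 419, 469 and 314 CPM in 5xFAD, against 306 and 150 CPM in WT, with a log2 fold change of 1.19 ± 0.54 and an unadjusted p of 0.0486. Oas1a had 133, 57.1, 31.5 and 38.2 CPM in 5xFAD, against 14.0 and 2.09 CPM in WT (log2 fold change 3.03 ± 1.57, unadjusted p = 0.0797). A91 carried the highest Bst2, Lgals3bp and Oas1a values, from 7 cells.

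Irf7 had 261, 20.5, 87.1 and 84.4 CPM in 5xFAD A91, A93, A99 and A100, against 25.6 and 8.38 CPM in WT A132 and A173, and overlapped through A93 (log2 fold change 2.77 ± 1.28, unadjusted p = 0.0532). Ifitm3 had 456, 0.715, 145 and 86.8 CPM in 5xFAD and 61.8 and 4.09 CPM in WT, again with A93 below both controls. Rsad2 was near 0 in prefrontal cortex, with at most 0.972 CPM in 5xFAD and 0.190 CPM in WT, unlike Oasl2 and Ifi27l2a. Ifi44, a cytoplasmic antiviral protein, had 167 reads in 5xFAD, in A99 and A100, and 0 in WT and in 5xFAD A91 and A93. Pooled over animals, that is 28.7-fold above a floor of 3 reads over the group, a bound that takes in no spread over animals. After thinning, Ifi44 was detected in 5.33% of 5xFAD cells. Ifi204 had 23.9, 0, 30.2 and 7.38 CPM in 5xFAD A91, A93, A99 and A100, against 0 and 0.381 CPM in WT, with A93 inside the WT values. Other abundant members overlapped as well. Rtp4 had 17.3, 66.1, 102 and 73.1 CPM in 5xFAD, against 131 and 41.8 CPM in WT. Irf9 had 263, 18.7, 20.2 and 139 CPM in 5xFAD, against 1.18 and 251 CPM in WT, and Slfn2 had 208, 56.7, 111 and 30.4 CPM in 5xFAD, against 90.2 and 62.0 CPM in WT. The controls thus differed from each other by as much as the groups did for Irf9. Ifit3 had 0.443, 0.429, 29.1 and 23.3 CPM in 5xFAD, against 12.3 and 22.0 CPM in WT. Slfn8 had 7.53, 0, 0.333 and 2.43 CPM in 5xFAD, against 25.1 and 36.5 CPM in WT. Log2 fold changes under 0, none of which passed the test, included those of Stat2 (-2.64), Isg15 (-1.78) and Ifih1 (-1.43).

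Per cell, detection of the genes was spread over most white matter cells of WT mice, while high levels sat in few cells. After thinning each cell to 20000 reads, the share of cells with 3 or more of the genes detected averaged 80.4% ± 8.05 over animals (SD, n = 6, range 71.4 to 93.8) in WT white matter and 43.9% ± 14.6 (n = 7, range 15.4 to 61.1) in WT grey matter. The WT tissues did not overlap in this share, which differed by 36.5 points, but the separation depended on the threshold and depth. The difference was 15.7 points for 5 or more genes, where the ranges overlapped (14.3 to 53.8% in WT white and 0 to 44.4% in WT grey matter). It was 17.8 points for 2 or more genes, where the ranges met at 84.6%, and 23.8 points without thinning, where they overlapped (81.3 to 100% in WT white and 50.0 to 85.7% in WT grey matter). At 3 or more genes, the share averaged 62.5% ± 17.7 (range 46.3 to 91.2, n = 5) in Trem2ko white and 48.1% ± 9.99 (range 38.6 to 60.0, n = 5) in Trem2ko grey matter, and 55.6% ± 17.3 (n = 4) in 5xFAD and 68.9% ± 13.7 (n = 2) in WT prefrontal cortex, all with overlap. The difference between Trem2ko and WT white matter, -17.9 percentage points, was -5.56 points at 50000 reads per cell (82.5% in Trem2ko and 88.0% in WT). Without thinning, where the groups differ in depth, it was 2.61 points, with both shares near the top of the scale (96.3% in Trem2ko and 93.7% in WT). That between 5xFAD and WT prefrontal cortex was 0.240 points at 50000 reads per cell and 3.71 points at a threshold of 5 genes. At least 1 of the genes was detected in 131 of 131 cells of WT white matter and in 124 of 134 of WT grey matter.

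Cells with 10 or more of the genes detected at that depth were 15 of 295 (5.08%) in Trem2ko white matter, 5 of 267 (1.87%) in Trem2ko grey matter, 11 of 131 (8.40%) in WT white matter, 4 of 134 (2.99%) in WT grey matter, 9 of 75 (12%) in 5xFAD and 3 of 41 (7.32%) in WT prefrontal cortex. These counts pool the cells of all animals of a group and carry no spread over animals, so they do not compare the groups. In Trem2ko white matter, A11 and A12 gave 95 and 99 cells before thinning. The share per animal with 5 or more genes ran there from 10.0 to 79.4%. The 5% of cells with the highest summed level held 17.1% to 34.4% of the summed CPM of a group. The cell with the highest value in Trem2ko white matter (A11, 55237 CPM over 28 genes) was led by Ifit3, with 13484 CPM, and the next (A12, 44301 CPM over 28 genes) by Irf7, Usp18 and Rsad2. In WT white matter the highest cell (A4, 21567 CPM over 24 genes) was led by Lgals3bp, Ifi27l2a and Bst2. The highest cell of Trem2ko grey matter (A9, 28065 CPM over 16 genes) lay above those of WT white matter and 5xFAD (A99, 14671 CPM over 27 genes). Those of WT grey matter (A4, 7124 CPM over 14 genes) and WT prefrontal cortex (A173, 5710 CPM over 15 genes) lay below them. A highest value tends to rise with the number of cells, which ran from 41 in WT prefrontal cortex to 297 in Trem2ko white matter, so these do not compare the groups. Among the 3 highest cells of each group, 18 in all, Lgals3bp was the leading gene in 9, which include all 3 of 5xFAD, and the other 9 were led by other genes. The highest cell of WT grey matter was led by Trim30a and that of WT prefrontal cortex by Lgals3bp.

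Pathway genes outside the list were tested in the same fits. Of 12 interferon ligands none had enough reads to be tested in the tissue fit, and none of the 8 receptor and kinase genes, all tested, had an unadjusted p under 0.05. Of 59 other interferon-induced genes, 44 were tested between WT tissues, and 0 passed an adjusted p of 0.05, with 4 above and 1 under 0 at an unadjusted p under 0.05, against 374 and 212 of all 11443 genes, and a median log2 fold change of 0.80, against 0.11 over all genes. These included Oas1g (9.15 ± 3.41), a second oligoadenylate synthetase, the chemokine Ccl12 (1.83 ± 0.73), Tor3a (1.74 ± 0.70), and the guanylate-binding protein Gbp7 (-3.82 ± 1.53). Of 12 sensors and adaptors tested outside the list, 1 had an unadjusted p under 0.05, the adaptor Ticam1, which links Toll-like receptors to interferon induction (4.28 ± 1.81, unadjusted p = 0.0298). Between Trem2ko tissues, 2 of 44 other interferon-induced genes had an unadjusted p under 0.05, Phf11a (5.36 ± 2.29) and Phf11d (2.88 ± 1.31), against 1.42% of all genes higher in white matter. In 5xFAD 1 of 34 did, Ccl12 (3.32 ± 1.48, unadjusted p = 0.0469), against 1.82% of all genes higher. Between genotypes in white matter, 1 of 32 of these genes, Gbp2 (3.34 ± 1.46), and 1 of 7 transcription factors, Irf2 (1.88 ± 0.77), had an unadjusted p under 0.05, against 1.77% of all genes higher. In grey matter 1 of 26 did, Ddx60 (4.50 ± 1.17), against 1.34% of all genes higher, and 1 of 12 sensors and adaptors, Tlr9 (-3.97 ± 1.64), against 99 of 8288 genes lower. None of these passed an adjusted p of 0.05.

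Blood-derived myeloid cells also pass a CD45+ CD11b+ gate, and their markers were measured beside the members. The summed level of the monocyte markers was 0.728 to 53.6 CPM in WT white matter and 0 to 5.47 CPM in WT grey matter. That of the microglia markers was 31288 to 42471 CPM in WT white and 43129 to 51525 CPM in WT grey matter. T cell markers were at or near 0 in all groups, with at most 2.26 CPM. Without the 18 of 136 WT white and 22 of 145 WT grey matter cells that carried markers of another cell type, the log2 ratio of the summed WT means was 1.33, against 1.21 with all cells, and the difference in the share of cells with 3 or more genes was 40.9 points, against 36.5 points with all cells. In Trem2ko, 46 of 297 white and 52 of 267 grey matter cells carried such markers. Those of neutrophils were met in 15 white and 25 grey matter cells of Trem2ko, against 1 and 0 in WT. A marker counted from 10 reads, and Trem2ko cells were deeper. Without the marked cells, the median log2 fold change between Trem2ko tissues was 1.25, against 1.76 with all cells. An unadjusted p under 0.05 by edgeR's quasi-likelihood test was then met by 5 members, against 7.

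Aged brain cells in 10x droplets gave levels of the genes by cell class, as sums over 1 pooled sample with no replicate. Intervals cover counting error only. Free RNA can place UMIs in cells of any class. The 10 microglia markers summed to 764 and 2075 UMIs per 1000000 UMIs in the astrocyte-like clusters, 1232 in ependymal-like and 2277 in erythrocyte-like cells, against 20595 to 28892 in microglia-like clusters. They summed to 3808 in pericyte-like cells and to 11961 in an endothelial-like cluster of 256 cells with a median of 893.5 UMIs. The part of free RNA in the low levels of a class was not tested. Cells were clustered without the listed genes, and classes were called from markers. The 8555 microglia-like cells held 1768 UMIs of the genes per 1000000 UMIs (UMI CPM). The level was 7289 in 330 monocyte-like cells, 4886 in 80 neutrophil-like cells, 4254 in 174 border macrophage-like cells, 3737 in 1252 endothelial-like cells, 3239 in 1102 T cell-like cells and 3134 in 354 ependymal-like cells. Of the endothelial-like cells, the 256 of the cluster with microglia markers were at 1834 and the other 996 at 3901. By class, the level was lowest in 273 neuroblast- and neuron-like cells (347) and 3196 astrocyte-like cells (395). The former pooled 98 cells led by Vip, Syt1 and Snhg11 (154) and 175 cells led by Dlx6os1, Dlx1 and Dcx (541). The larger astrocyte-like cluster, of 2684 cells, was at 383. Thinned to 1000 UMIs, 20.0% of microglia-like cells (1694 of 8458, 95% interval 19.2 to 20.9, exact) had 3 or more of the genes detected. That share was 60.9% in monocyte-like, 46.0% in endothelial-like and 1.33% in astrocyte-like cells, where the astrocyte-like share stands for the low end at a similar depth (median 6623 UMIs, against 7218 in microglia-like cells). The monocyte-like cluster was led by H2-Eb1, Mgl2, H2-Aa and Ear2 beside the marker Plac8, so its name is loose.

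The classes used different members. In microglia-like cells the order was Lgals3bp (245 UMI CPM, 95% interval 241 to 249), Bst2 (174, 171 to 177), Ifi27l2a (168, 165 to 172), Trim30a (154, 151 to 157), Trim30d (95.8), Ifitm3 (86.6), Parp14 (83.6) and Slfn2 (79.1), where Bst2 and Ifi27l2a lie close together. The order is that of the pooled cells and did not hold in each barcode ending. Bst2 lay above Lgals3bp in the first ending (155 and 130) and the fifth (121 and 112), where Trim30a was highest at 122, and Ifi27l2a lay above Bst2 in the second (245 and 208) and the fourth (478 and 229). Among the named classes, Lgals3bp was the 1 gene of the list with its highest level in microglia-like cells. Ifitm3 led in monocyte-like (2342), ependymal-like (1648), neutrophil-like (1422), endothelial-like (1040), pericyte-like (879), fibroblast-like (667) and oligodendrocyte progenitor-like cells (453). Ifi27l2a led in B cell-like (856), T cell-like (686) and choroid plexus-like cells (532), and was at 1517 in monocyte-like cells. Slfn2, the Schlafen gene of quiescent lymphocytes, led in NK cell-like cells (251) and was at 403 in T cell-like and 683 in neutrophil-like cells. Slfn5 was at 395 and Isg15 at 199 in endothelial-like cells, and Bst2 led in border macrophage-like cells at 625. In astrocyte-like cells the first were Lgals3bp (82.1), Ifit3 (38.8) and Ifitm3 (35.6), and in neuroblast- and neuron-like cells Ifitm3 (34.8), Oasl2 (30.0) and Ifit2 (19.6). Oasl2 and Ifit2 were at 56.1 and 34.6 in the cluster of 175 neuroblast- and neuron-like cells, against 4.11 and 4.80 in that of 98 cells. Erythrocyte-like cells held 219 of Rsad2 and 140 of Isg15.

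**Figure D4:**
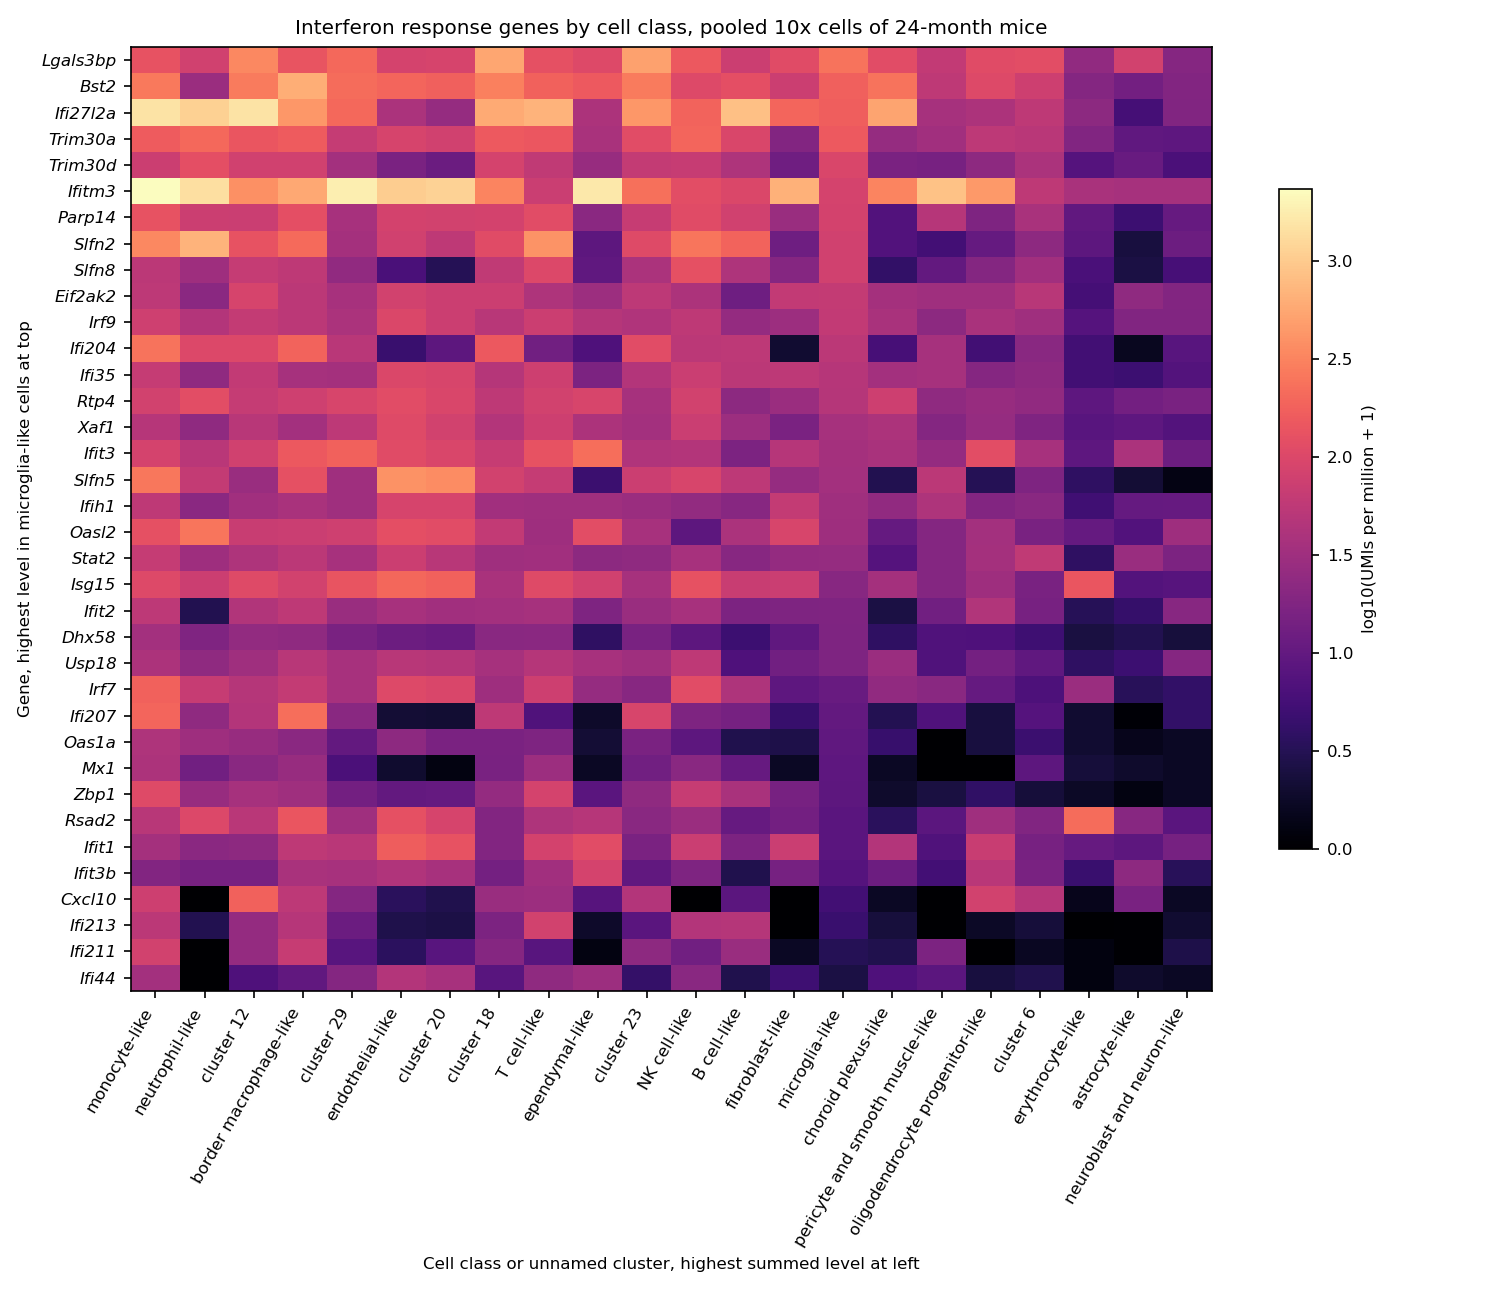
Level of each of the 36 genes (log10 of UMI CPM plus 1) in each 10x cell class, summed over the cells of 1 pooled sample. Ifitm3 and Ifi27l2a are bright in most classes, Lgals3bp peaks in microglia-like cells among the named classes (245 UMI CPM), and astrocyte-like cells are dark for most genes.

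In a pair of further clusters the microglia markers were the list with the best score, at 0.784 and -0.015, where a negative score lies below the mean level over clusters. Both scores lay under the threshold of 1, which was set after the data were seen, so the clusters were kept unnamed. They held more of the genes than microglia-like cells. Their summed microglia markers, at 17372 and 11919 UMI CPM, lay below those of the microglia-like clusters, and an endothelial-like cluster reached 11961. One (1654 cells led by Cxcl13, Tpsb2, Lox and Rxrg, with Cst7 and Axl lower among its leading genes) held 3339 UMI CPM, with Ifi27l2a at 582, Lgals3bp at 562 and Ifitm3 at 322. The other (729 cells led by Mmp12, Spp1, Ccl4 and Ccl3, with Lpl and Gpnmb lower among its leading genes) held 2749, with Lgals3bp at 501, Ifi27l2a at 431 and Bst2 at 273. Single microglia-like clusters ran from 1139 to 2931 UMI CPM, and the highest, of 135 cells, lay above this 2749. In the first unnamed cluster, levels relative to all microglia-like cells were 8.53-fold for Ifi211, 6.25 for Cxcl10, 5.99 for Ifi207, 3.71 for Ifitm3, 3.46 for Ifi27l2a and 2.30 for Lgals3bp, and lower for Irf9 (0.840) and Slfn8 (0.745). In the second, Cxcl10 (10.2-fold), Ifi211 (10.0) and Ifi207 (9.92) stood highest and Slfn8 lowest (0.495).

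Within microglia-like cells the genes formed a continuous range with a long tail. Thinned to 3000 UMIs, 6.53% of cells had none of the genes detected, 2 was the most frequent number (1599 cells), 29.0% had 5 or more (2326 of 8034) and 11.3% had 8 or more, up to 31 genes. Cells with 5 or more held 97.7% of the Ifi211 UMIs and 92.2% of the Oasl2 UMIs, but 57.9% of Lgals3bp, 51.0% of Bst2 and 49.9% of Ifi35, values that the choice of cells in part sets. Of the 2326 cells with 5 or more, 1065 came from the second barcode ending and 572 from the fourth. Comparing them with the other microglia-like cells thus also sets endings against each other. Outside the list, the cells with 5 or more had 337 UMI CPM of Ccl12, against 106 in the other microglia-like cells. The receptor gene Ifnar1 had 64.1, against 64.3. Of the microglia markers, P2ry12, Tmem119 and Cx3cr1 had 2227, 1001 and 3945, against 2768, 1011 and 4015. Fcrls and Gpr34 had 972 and 1224, against 1394 and 1554, and every other marker of that list was lower as well. When the genes were kept in the clustering, 1 microglia-like cluster of 364 cells was led by Cxcl9, Cxcl10, Ifit2, Mx1, Ifi211, Ifi204, Cxcl13, Ifit3, Oasl1 and Ccl12. Ifng, the type II interferon gene, was at 73.0 UMI CPM in NK cell-like and 29.3 in T cell-like cells, against 0.0160 in microglia-like cells.

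The barcode endings differed widely, and neither tissue nor batch could be read from them. Summed levels in microglia-like cells were 1161, 2333, 1754, 3112 and 991 UMI CPM over the 5 endings. Ifi27l2a was at 40.5, 245, 167, 478 and 32.8, Lgals3bp at 130, 351, 232, 478 and 112, and Oasl2 at 10.4, 51.4, 22.5, 71.5 and 7.32 UMI CPM, in the same order. These 3 genes ranked the endings alike, with Ifi27l2a spread more widely than Lgals3bp, but not every member did. Isg15 was at 20.0, 21.8, 27.4, 25.3 and 11.1 UMI CPM, and Cxcl10 at 11.4, 2.82, 11.2, 2.12 and 0.316, in the same order of endings. The share of cells with 5 or more genes at 3000 UMIs was 12.7%, 45.2%, 26.3%, 59.8% and 9.80%.

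**Figure D5:**
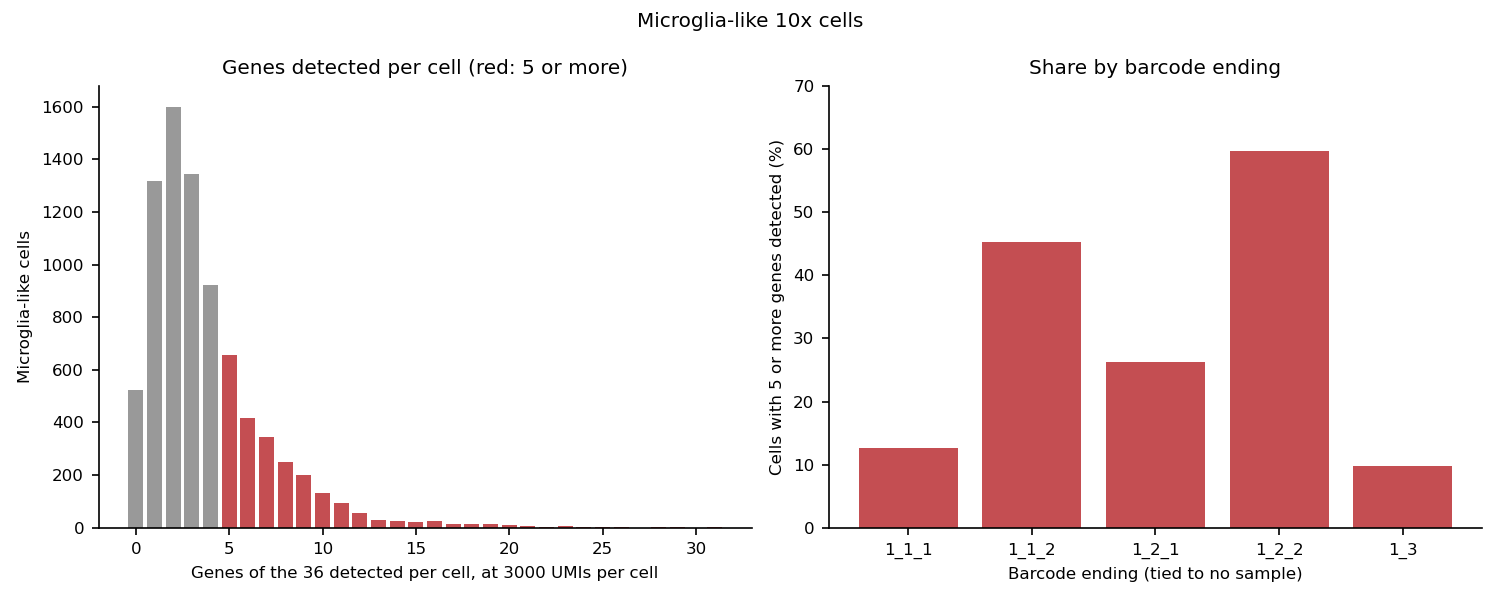
Number of the 36 genes detected per microglia-like cell after thinning to 3000 UMIs (cells per number), and share of these cells with 5 or more genes (%) for each of the 5 barcode endings. Most cells hold few genes and the shares run from 9.80% to 59.8%, and endings are not tied to tissue.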

How the data were processed

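Smart-seq2 cells of aged and 5xFAD mice and 10x cells of aged mice were analysed, and the 10x ApoeKO table and the table of postnatal cells were not used here. The authors deposited unnormalized counts, of reads for Smart-seq2 and of UMIs for 10x. The submitters' processing notes name Cell Ranger 4, Trim Galore, FastQC, bcl2fastq and the build mm10, and which aligner and counter made the Smart-seq2 counts was not given in the sources used here. Members, pathway lists, markers and the rule for naming genes were chosen with earlier results of these data known.

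Of the aged cells' gene symbols, 55 renamed pairs were joined, 2 listings were merged into another cell of the same well, and 4716 genes with 0 reads in 1 or both parts of the table (0.141% of reads) were left out of the fits. Counts were summed per animal and tissue with at least 5 cells, which left out A13 and A187. CPM are reads per 1000000 reads of a library, without further scaling. Tests used edgeR 4.0.16 (quasi-likelihood, robust, TMM, filterByExpr, Benjamini-Hochberg over all tested genes at 0.05) in R 4.3.3. One fit of 22 libraries had the animal as a block and gave the tissue effects. Other fits compared genotypes within each tissue, and the test was tried on simulated counts. Common biological coefficients of variation were 1.09 (paired), 1.07 (white matter), 1.14 (grey matter) and 1.33 (prefrontal cortex). The SE is the size of the log2 fold change over the square root of F, an approximation. Animal names in the labels give the pairing. Deviations from group means correlated by 0.0146 to 0.0990 between tissues of 1 animal, and for A2, A7 and A9 a correlation with another animal was higher. Alternatives were DESeq2 1.42.0, its size factors, no low-count filter, other sets of cells, limma 3.58.1 on mean per-cell CPM with a pseudocount of 1, no block, and each animal left out.

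For 10x, cells with at least 500 UMIs and at most 15% mitochondrial UMIs were kept (21196 of 21197), 135 doublets (0.637%) called per barcode ending were left out (4 of 4395 to 73 of 4386 cells per ending, so doublets may remain in those with few), and the rest were clustered in scanpy 1.11.5 and leidenalg 0.10.2 without members or pathway genes. Endings shared 0 to 11 barcodes. Values per animal are printed for members with an unadjusted p under 0.05 in a comparison and for the 8 with the highest mean CPM, 18 in all, and for 10x the 8 highest in microglia-like cells and the 3 highest of each other class. Cxcl10, Ifih1, Dhx58, Eif2ak2, Ifi44, Slfn8, Stat2, Usp18 and Isg15 were named with values after these were seen. Intervals and floors cover counting error only, since reads without molecular identifiers are not independent molecules.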

Additional observations from a re-analysis of the deposited data

Results flagged for a closer look

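Among 97 groups of 4 to 10 values tested, 34 had 1 library far from the others of its group. Chance flags about 1 in 20 groups of independent, normally distributed values. Many of these groups hold skewed values or zeros and share libraries, so that rate does not apply to the 34. All were the highest of their group, and most came from a few libraries. The levels below are CPM.

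Trem2ko grey matter of A9 lay far above the other Trem2ko grey matter animals in the summed level (3170), Lgals3bp (1210), Rtp4 (199), Ifit3 (326), Ifit1 (15.5), Irf7 (206) and Oasl2 (47.1). Its 35 cells included 1 with 32.2% of the reads of these genes. Trem2ko white matter of A8 stood above its group in Lgals3bp (1491), Ifi27l2a (385), Ifit1 (75.7), Oasl2 (240) and Zbp1 (41.2), and its grey matter in Ifitm3 (56.2). A12 stood above in white matter for Irf9 (343) and Rsad2 (76.7), and A11 in grey matter for Rsad2 (10.2) and Ifi211 (1.18).

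WT white matter of A2, a library of 10 cells, stood above its group in Bst2 (746), Ifit3 (354), Ifit1 (32.3), Ifi213 (33.4) and Zbp1 (131), and that of A6 in Slfn2 (554). In WT grey matter, A4 stood above in Irf9 (123), Ifi27l2a (20.9), Irf7 (59.8) and Ifi204 (1.66). A6, with 7 cells, did so in Bst2 (490) and Ifi211 (3.50), A7 in Ifit3 (47.0), A2 in Ifitm3 (175) and A1 in Zbp1 (0.836). In 5xFAD, A100 stood above in Rsad2 (0.972) and Zbp1 (0.680), levels near 0 in every library of that comparison.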

How the results depend on the processing

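The number of members called stayed at 0 by edgeR in all 6 comparisons under other size factors, no low-count filter, other minimum numbers of cells, without cells with markers of another type, with cells of at least 50000 reads, with limma on mean per-cell CPM, and without each animal (0 to 0). DESeq2 called 4 members between WT tissues, 4 between Trem2ko tissues and 1 in 5xFAD, and 0 in the other comparisons; the cause was not tested. Without the replicate block, that is without pairing the tissues of 1 animal, 1 member (Ifi27l2a) was called between WT tissues, and the block changed no other call. The share of cells with 3 or more members differed between WT tissues by 36.5 points, by 17.8 points for 2 or more and 15.7 points for 5 or more members, and the Trem2ko difference from WT white matter of -17.9 points was -5.56 points at 50000 reads per cell and 2.61 points without thinning. Leaving out each animal gave share differences of 31.8 to 39.3 points (WT tissues), 5.84 to 18.8 (Trem2ko tissues), -25.1 to -13.9 (Trem2ko against WT white matter), -0.481 to 7.14 (Trem2ko against WT grey matter) and -23.0 to -3.68 (5xFAD). It gave log2 ratios of summed means of 1.10 to 1.36, 0.31 to 1.31, -0.23 to 0.31, 0.21 to 0.78 and 0.82 to 1.28, in the same order. The summed ratio of Trem2ko over WT white matter thus turned sign without Trem2ko A8. Ratios of sums, leaving out animals for shares, the 3000 UMI depth and their settings were chosen after seeing the data. The microglia-like 10x share of 20.0% was 37.8% for 2 or more members, 5.86% for 5 or more, 84.4% without thinning, 19.7% with members kept in the clustering and 21.9% with doublets kept. Several sensors had 0 reads in whole WT grey matter libraries, and a count of 0 limits a level only as far as the depth of that library allows.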

Other observations

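Lgals3bp led 9 of the 18 cells with the highest summed level of the genes, taken as 3 per group. In Trem2ko grey matter the first cell (A9, 28065 CPM) was led by Lgals3bp, Ifit3 and Irf7, and the second (A11, 9683 CPM) by Irf9, Usp18 and Rtp4. In WT white matter a cell of A4 (17520 CPM over 23 genes) was led by Cxcl10, at 5720 CPM, whereas the highest WT cell of grey matter was led by Trim30a, at 2092 CPM. In 10x data, a cluster of 105 cycling cells held 4378 UMIs of the genes per 1000000 UMIs, with Ifi27l2a at 1521, and carried no class name.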
